A study of Homo sapiens
Mus musculus and Mus musculus and Homo sapiens with 16 samples.

Results

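REC-1, a human mantle cell lymphoma line, was cultured for 24 h over MS-5, a mouse bone marrow stromal line, and the cells that adhered to the stroma (Adh) were compared with those that stayed in suspension in coculture (Susp). All human genes entered this comparison, which takes the 4 Adh and the 4 Susp libraries, 8 of the 16 libraries of the study. It sets cells in direct stromal contact against cells that shared the dish without adhering. Effects of contact cannot be told apart here from earlier differences between cells that adhere and cells that do not. Nor can they be told apart from the way RNA was extracted, which differed between both groups. REC-1 cells cultured alone (Sep, 4 libraries) served as a reference. The remaining 4 libraries held MS-5 cells alone. All groups were grown in αMEM-glutamax with serum. The 4 libraries of each group are numbered 1 to 4 and come from 4 independent experiments per the study's figure captions. The model is 1 lymphoma line on 1 mouse stromal line, so stromal ligands are murine. Suspended cells were removed with the medium, whereas RNA of adherent cells was extracted together with that of the stroma, without cell separation, and human and mouse reads were told apart by sequence.

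Human reads amounted to 7758979 to 13241751 counts per Adh library and 15000927 to 21467832 per Susp library. Adh libraries held a further 29495404 to 34615602 mouse counts, so human counts were 18.3% to 28.2% of each. Susp 2 stood apart from the other Susp libraries. In pairwise comparison with these, its chi-square per degree of freedom over genes was 52.8 to 57.4. Among those 3 it was 6.76 to 10.1, and among the Adh libraries 5.27 to 12.3. This measure on raw counts grows with depth, and the Adh libraries were less deep. Adh 3 had the lowest median correlation with its own group (r = 0.974), beside 0.978 in Susp 2, Adh 1 and Adh 4. Results that depended on Susp 2 are given with and without it. All 15 markers of mature B cells and mantle cell lymphoma reached an average of 1 CPM (the count scaled to library size) in both groups. Their summed level was 6440 to 7160 CPM in Adh and 6720 to 7750 in Susp libraries. HLA-DRA, 1 of these markers, was low in the Susp libraries, and its values are given below. Summed markers of T and NK cells lay at 8.38 to 11.4 CPM in Adh and 7.55 to 10.1 in Susp libraries, and those of myeloid cells at 5.32 to 10.1 and 6.35 to 8.34. Of 46 stromal and fibroblast genes, 17 were at 0 human counts in all 4 Adh libraries and 16 in all 4 Susp libraries, and the list summed to 46.9 to 64.3 CPM of human counts in Adh, 52.7 to 63.6 in Susp and 56.5 to 66.7 in Sep libraries. For the 31 of these with at least 10000 mouse counts, the Adh libraries held 1841 human against 3000606 mouse counts, 0.0614 human per 100 mouse counts, and the Susp libraries, in which adherent MS-5 cells were left behind, held 2905 human counts. These are raw sums, and the Susp libraries were deeper in human counts. TIMP2 alone gave 1203 of the human counts in Adh and 1952 in Susp libraries, and had 1243 in Sep libraries.

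Lymphoid cells bind stroma through integrins, CD44 and other adhesion receptors, and are drawn to it and held there by chemokine and lipid receptors that signal through G proteins. CD44 recognises hyaluronan, a long sugar polymer of the matrix that link proteins tie to proteoglycans, and RGS proteins end a G protein's signal by speeding up its GTP hydrolysis. Contact with stroma is known in mantle cell lymphoma for protecting malignant B cells.

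Of 12861 genes tested, 100 were called between Adh and Susp cells, which is 0.778%, in edgeR's quasi-likelihood test, where a call needed a change of 1.5 times or more and a Benjamini-Hochberg adjusted p no larger than 0.05. In Adh cells, 14 genes (0.109%) were higher and 86 (0.669%) lower, and 14 of the 86 belonged to the mitochondrial genome. That leaves 72 nuclear genes that fell. With the replicate number as a block, 281 genes were called, 41 higher and 240 lower, 99 of them among the 100. At an unadjusted p below 0.05 there were 2316 genes. For all 100 called genes the library values of both groups did not overlap, as they did not for 1472 genes (11.4%) of all tested. In each of the 8 fits that left out 1 library, 5 of the 14 higher genes (RGS13, BMP5, CD44, NLRP11 and TFCP2) and 34 of the 86 lower genes were called again, 20 of the latter nuclear. The number of calls was 51 without Adh 1, 62 without Adh 3, 66 without Susp 4 and 67 to 92 without any of the others. Since libraries hold many cells, a gene's lower level in each cell and a smaller share of cells expressing it cannot be told apart.

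**Figure D1:**
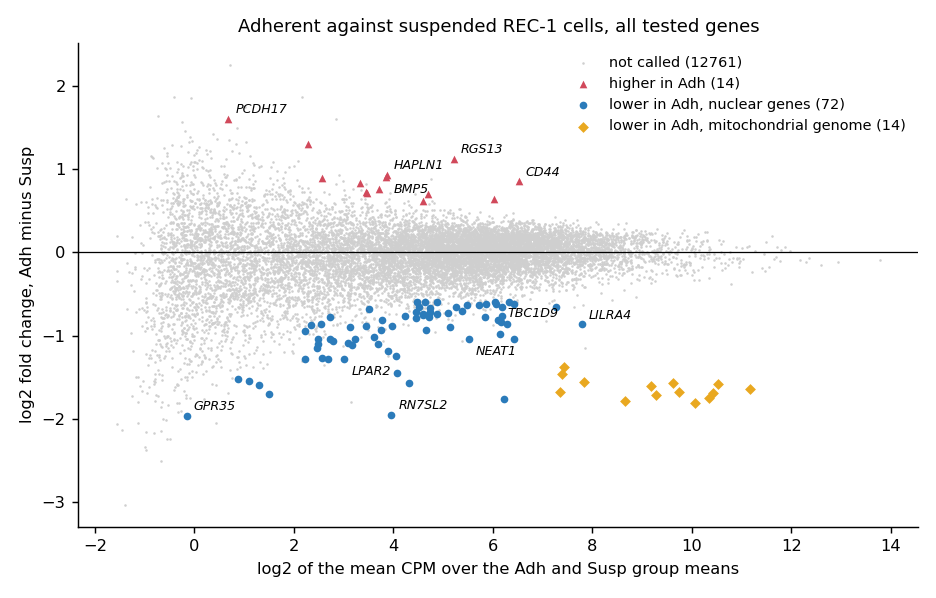
Each point is 1 of the 12861 tested genes, with the log2 of its mean CPM over the Adh and Susp group means on the horizontal axis and its log2 fold change, Adh minus Susp, on the vertical axis. The 14 higher genes (triangles) lie between 0.62 and 1.61, the 72 nuclear lower genes (circles) reach down to -1.96, and the 14 lower genes of the mitochondrial genome (diamonds) form a group of their own at high levels.

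Among the genes that rose in Adh cells, several act at the cell surface or in the matrix. CD44 (ENSG00000026508, chromosome 11, 35138882 to 35232402), the hyaluronan receptor, stood at 126, 117, 115 and 114 CPM in Adh 1 to 4 and at 65.5, 54.3, 71.2 and 69.2 CPM in Susp 1 to 4. Thus every Adh library was above every Susp library by a wide margin. The log2 fold change was 0.86 (SE 0.11, edgeR adjusted p = 0.000477). In Sep libraries CD44 was at 102, 90.4, 76.1 and 82.3 CPM, between both coculture groups, so that its log2 difference from Sep cells was 0.43 in Adh (adjusted p = 0.0364) and -0.43 in Susp cells (adjusted p = 0.0681). HAPLN1 (ENSG00000145681, chromosome 5, 83637805 to 83720855), a link protein that fastens proteoglycans to hyaluronan, was at 22.9, 20.03, 15.6 and 18.2 CPM in Adh and 11.9, 7.75, 10.8 and 9.804 CPM in Susp libraries. Its levels in Sep cells, 8.79 to 12.5 CPM, were like those of Susp cells, with log2 differences from Sep of 0.86 in Adh (adjusted p = 0.0112) and -0.07 in Susp cells (adjusted p = 0.854). The log2 fold change of HAPLN1 between Adh and Susp was 0.93 (SE 0.17, edgeR adjusted p = 0.0136). The call was lost without Adh 1, the highest library, at a log2 fold change of 0.83 and an adjusted p of 0.0619, and kept without any other library.

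The other surface genes were less abundant. TSPAN13, a tetraspanin, had 14.3, 14.2, 13.6 and 8.98 CPM in Adh and 8.097, 7.99, 7.49 and 5.24 CPM in Susp libraries, or 0.83 as log2 fold change (SE 0.18, edgeR adjusted p = 0.032). Adh 4 lay close to the highest Susp library, and the call was lost without Adh 1, Adh 2, Adh 3, Susp 3 or Susp 4, with log2 fold changes of 0.71 to 0.85 in these fits and adjusted p up to 0.123. PCDH17, a protocadherin of the cadherin family of adhesion proteins, was a rare transcript at 2.405, 2.12, 3.34 and 1.796 CPM in Adh and 1.195, 0.738, 0.677 and 0.537 CPM in Susp libraries. Its log2 fold change, 1.61 (SE 0.34, edgeR adjusted p = 0.027), rests on 14 to 32 counts per Adh and 8 to 18 counts per Susp library, and the call held only without Adh 4 or Susp 1 (adjusted p up to 0.119 in the other 6 fits). PCDH10, a more abundant protocadherin, was called lower instead (log2 fold change -0.75). Of 7 tested protocadherin genes, 1 was called higher and 1 lower. BAIAP2L1, which couples curved membranes to actin, had 13.9, 13.5, 11.9 and 15.7 CPM in Adh against 7.25 to 8.97 CPM in Susp libraries (log2 fold change 0.72, edgeR adjusted p = 0.027), and lost its call in 6 of the 8 fits, those without Adh 1, Adh 2, Adh 4, Susp 1, Susp 3 or Susp 4 (adjusted p up to 0.0966).

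Signalling genes made up a second group. RGS13 (ENSG00000127074, chromosome 1, 192636138 to 192660311), a GTPase activator of Gα subunits known from germinal centre B cells, had the smallest adjusted p of the 14. Its level was 52.7, 44.8, 51.01 and 54.9 CPM in Adh and 25.8, 22.4, 21.5 and 23.4 CPM in Susp libraries, so that no Adh library came below 44.8 and no Susp library above 25.8. The log2 fold change was 1.13 (SE 0.10, edgeR adjusted p = 2.79e-05). Sep libraries had 42.8, 35.5, 41.2 and 39.6 CPM, and RGS13 was lower in Susp than in Sep cells by a log2 difference of -0.77 (adjusted p = 0.0009), while that between Adh and Sep cells was 0.35 (adjusted p = 0.0659). The larger part of the distance between the coculture groups thus lay between suspended and monocultured cells. BMP5 (ENSG00000112175, chromosome 6, 55753653 to 55875590), a secreted ligand of the TGF-beta superfamily, was at 16.8, 18.01, 21.97 and 18.6 CPM in Adh and 11.1, 7.87, 9.91 and 11.3 CPM in Susp libraries (log2 fold change 0.90, SE 0.16, edgeR adjusted p = 0.00915). Sep libraries, at 10.5 to 15.8 CPM, overlapped the Susp libraries at their lower end and stayed below the Adh libraries. NLRP11, a primate member of the NOD-like receptors, had 29.6, 32.7, 28.8 and 36.6 CPM in Adh and 21.8, 18.2, 18.9 and 19.5 CPM in Susp libraries (log2 fold change 0.70, SE 0.11, edgeR adjusted p = 0.00474). Here Sep cells, at 18.1 to 20.4 CPM, were at the Susp level, and the log2 difference from Sep was 0.74 in Adh (adjusted p = 0.00124) and 0.04 in Susp cells (adjusted p = 0.879).

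The remaining 6 higher genes concern metabolism, transcription and the centrosome. PHKA1, a regulatory subunit of phosphorylase kinase in glycogen breakdown, was at 8.57, 6.36, 7.71 and 5.26 CPM in Adh and 2.19, 1.84, 4.01 and 3.22 CPM in Susp libraries, its log2 fold change being 1.30 (SE 0.26, edgeR adjusted p = 0.0231). The call was lost without Adh 1, Adh 3, Susp 1 or Susp 4, where the log2 fold change was 1.18 to 1.36 and the adjusted p at most 0.0961. RIMKLA, which joins glutamate to N-acetylaspartate, had a log2 fold change of 0.90 (edgeR adjusted p = 0.0235; 6.76 to 9.76 CPM in Adh and 3.44 to 4.51 in Susp libraries) and lost its call without Adh 2, Adh 3, Susp 3 or Susp 4 (adjusted p up to 0.0823). SLC16A10, a transporter of aromatic amino acids, rose from a range of 7.44 to 8.86 CPM in Susp to one of 11.9 to 15.9 CPM in Adh libraries (log2 fold change 0.73, edgeR adjusted p = 0.043). PIBF1, a centrosomal protein, rose from a range of 7.93 to 10.5 CPM in Susp to one of 13.99 to 21.3 CPM in Adh libraries (log2 fold change 0.76, edgeR adjusted p = 0.045). Neither of these calls survived the removal of any 1 of the 8 libraries, with adjusted p up to 0.137 and 0.142. TFCP2, a transcription factor, had 84.1, 80.98, 75.7 and 76.8 CPM in Adh and 52.97, 44.6, 50.9 and 55.00 CPM in Susp libraries, a wide gap for values of such small spread (log2 fold change 0.64, edgeR adjusted p = 0.00474). ZNF486, a zinc finger protein, rose from a range of 15.6 to 21.2 CPM in Susp to one of 28.02 to 30.97 CPM in Adh libraries (log2 fold change 0.62, edgeR adjusted p = 0.0172) and lost its call without Adh 1, Adh 3, Susp 2 or Susp 3 (adjusted p up to 0.0715, and a log2 fold change of 0.55 without Susp 2). When each library was corrected for a trend with GC content and exon length, SLC16A10, PIBF1, TFCP2 and ZNF486 no longer passed, at log2 fold changes of 0.54, 0.58, 0.55 and 0.47, the other 10 higher genes being called again.

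Because Adh libraries also held mouse RNA, the mouse counts of the same gene symbols were set beside these 14 genes. Mouse Rgs13, Hapln1, Pcdh17, Rimkla and Slc16a10 had 0 counts in all 4 Adh libraries, and no mouse gene carries the symbol of NLRP11 or ZNF486. Tspan13 and Baiap2l1 had at most 8 and 7 mouse counts per library. Mouse Cd44 had 4018 to 5499 counts beside 886 to 1671 human ones, Phka1 1571 to 1947 beside 41 to 114, Bmp5 591 to 865 beside 145 to 223, Pibf1 411 to 537 beside 109 to 195 and Tfcp2 976 to 1129 beside 589 to 1119. For these 5 genes the part of misassigned reads was not tested gene by gene, and the rate over stromal genes was the 0.0614 per 100 given above. The reverse error, human reads of Adh libraries not kept as human, would lower human counts there. For the genes called lower it was not tested.

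**Figure D2:**
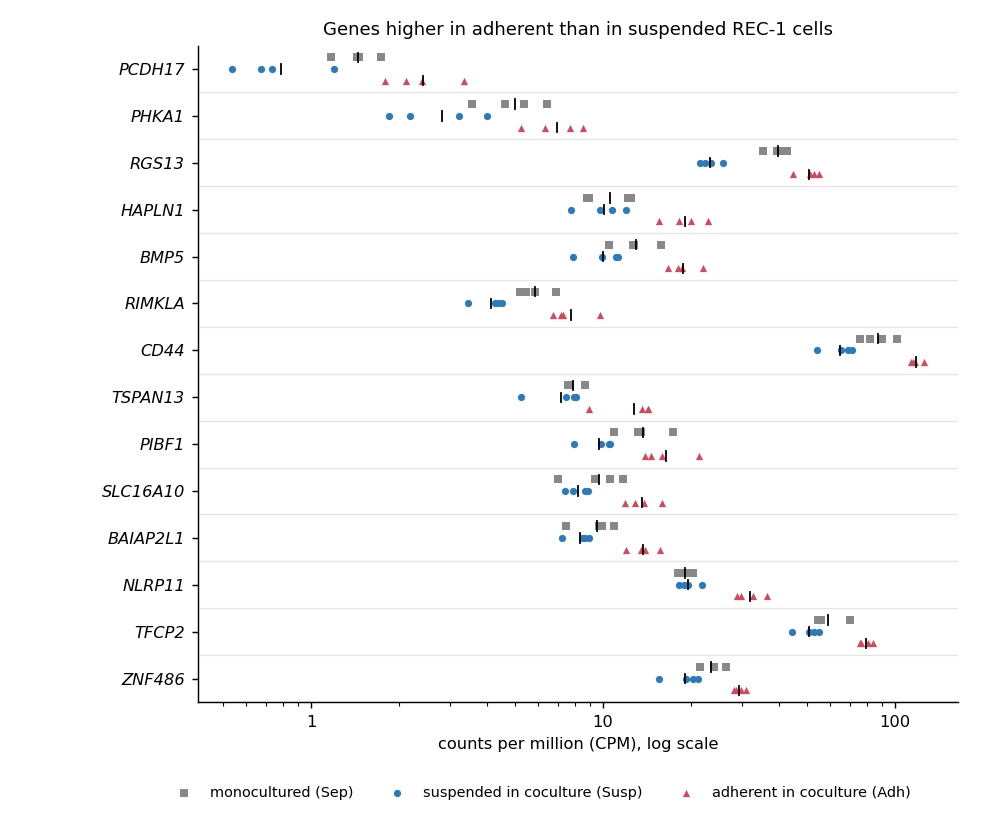
Levels in CPM (log axis) of the 14 genes called higher in Adh than in Susp cells, with 1 point for each of the 4 libraries per group and a black bar at the group mean. Every triangle (Adh) lies to the right of every circle (Susp), whereas monocultured cells (squares) lie near Adh, near Susp or between, depending on the gene.

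Nuclear genes that fell in Adh cells included LPAR2, LTB4R and GPR35, which are G protein-coupled receptors. LPAR2 (ENSG00000064547, chromosome 19, 19623655 to 19628930), a receptor for lysophosphatidic acid, was at 4.51, 4.24, 4.75 and 5.39 CPM in Adh and 10.7, 14.9, 9.62 and 10.6 CPM in Susp libraries. All Adh libraries thus lay well below the lowest Susp library. The log2 fold change was -1.28 (SE 0.20, edgeR adjusted p = 0.00355), and the call held in all 8 fits without 1 library. LTB4R (ENSG00000213903, chromosome 14, 24311450 to 24318036), the leukotriene B4 receptor of leukocytes, was at 4.36, 5.49, 6.17 and 6.93 CPM in Adh and 11.7, 14.4, 11.9 and 11.2 CPM in Susp libraries (log2 fold change -1.12, SE 0.21, edgeR adjusted p = 0.0169). Without Adh 1 or Adh 2 it was not called, at log2 fold changes of -0.996 and -1.10 and an adjusted p of up to 0.0759. GPR35, a further G protein-coupled receptor, had the steepest fall of the 72 but was a rare transcript, at 0.301, 0.385, 0.257 and 0.513 CPM in Adh and 1.39, 1.598, 1.26 and 1.48 CPM in Susp libraries (log2 fold change -1.96, SE 0.41, edgeR adjusted p = 0.027), and its call was lost whichever of the 8 libraries was left out (adjusted p up to 0.127). Also among the 25 largest falls were APOBR, a receptor for apolipoprotein B, and ABCA7, a lipid exporter. APOBR went from a range of 5.41 to 8.97 CPM in Susp to one of 1.28 to 4.14 CPM in Adh libraries (log2 fold change -1.28, edgeR adjusted p = 0.0409) and was called only without Adh 2 (adjusted p up to 0.149 without another library). ABCA7 was at 44.7, 70.6, 50.8 and 57.7 CPM in Adh and 98.6, 131, 116 and 114 CPM in Susp libraries (log2 fold change -1.04, SE 0.19, edgeR adjusted p = 0.0111; adjusted p = 0.0503 without Adh 1). No gene was called among 49 tested of fatty acid and lipid metabolism (median log2 fold change 0.0555) or 31 of cholesterol synthesis and uptake (median -0.00536), beside 0.778% called of all tested genes.

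Sep cells were not at the same place for each of these receptors. The log2 difference of LPAR2 from Sep was -0.85 in Adh (adjusted p = 0.0302) and 0.44 in Susp cells (adjusted p = 0.258), and for LTB4R these values were -1.19 (adjusted p = 0.00513) and -0.07 (adjusted p = 0.882). Both contrasts share libraries with each other and with the main one. Of the list of receptors for homing and confinement, which holds chemokine, sphingosine and lysophosphatidic acid receptors, 25 of 45 genes were tested. LPAR2 was its only call, and the list's median log2 fold change was 0.0218, against -0.00507 over all tested genes.

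Immune receptor and signalling genes were a second lower group. LILRA4 (ENSG00000239961, chromosome 19, 54333185 to 54339162), a leukocyte immunoglobulin-like receptor best known from plasmacytoid dendritic cells, was at 158, 170.0, 134 and 166 CPM in Adh and 279, 338, 269 and 254 CPM in Susp libraries. Even the highest Adh library was far below the lowest Susp library. The log2 fold change was -0.86 (SE 0.10, edgeR adjusted p = 0.000295), and the log2 difference from Sep cells was -0.59 in Adh (adjusted p = 0.00331) and 0.27 in Susp cells (adjusted p = 0.205). PILRB, an activating paired receptor, was at 5.11, 4.91, 6.42 and 8.47 CPM in Adh and 11.2, 13.5, 13.6 and 12.2 CPM in Susp libraries (log2 fold change -1.04, SE 0.21, edgeR adjusted p = 0.0206), and the call was lost without Adh 1, Adh 2, Adh 3 or Susp 3 (adjusted p up to 0.0892). The list of Fc receptor-like and inhibitory receptors also holds activating ones such as PILRB. LILRA4 and PILRB were its calls among 25 tested genes, 7 of which had a log2 fold change above 0 (median -0.138).

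IGHD, the constant region of IgD, a B cell receptor isotype, had almost equal levels in the 4 Adh libraries, 21.5, 21.6, 22.1 and 22.7 CPM, and higher ones in Susp, 32.3, 45.5, 36.9 and 31.5 CPM, its log2 fold change being -0.74 (SE 0.14, edgeR adjusted p = 0.0192). Sep libraries held 18.7, 28.1, 24.1 and 27.7 CPM, and the log2 difference from Sep was -0.17 in Adh (adjusted p = 0.565) and 0.57 in Susp cells (adjusted p = 0.0681). The IGHD call was lost without Adh 1, Adh 2, Adh 3 or Susp 3 (adjusted p up to 0.0704) and, by the fold-change minimum alone, under the GC and length correction (log2 fold change -0.41, edgeR adjusted p = 0.0281). Other members of the B cell receptor list did not pass the test, among them IGHM at -0.11 (adjusted p = 0.634), IGKC at -0.11 (adjusted p = 0.537) and CD79A at -0.17 (adjusted p = 0.344). Of 42 tested, 1 was called, and the median was -0.0338. RASGRP2, an exchange factor that activates Rap1 ahead of integrins, was at 58.5, 70.9, 66.4 and 76.7 CPM in Adh and 90.7, 127, 99.9 and 100.3 CPM in Susp libraries (log2 fold change -0.62, SE 0.14, edgeR adjusted p = 0.0438), and its call held in only 1 of the 8 fits without a library, that without Susp 1 (adjusted p up to 0.159), and was lost, by the fold-change minimum alone, under the GC and length correction (log2 fold change -0.30, edgeR adjusted p = 0.0231). It was the call among 20 tested integrins and activators, in which TLN1, an integrin activator that links integrins to actin, had a log2 fold change of -0.21 (adjusted p = 0.306). NFATC4, of the calcineurin-regulated NFAT factors, was at 3.16, 5.39, 5.14 and 4.36 CPM in Adh and 9.03, 11.3, 9.38 and 7.79 CPM in Susp libraries (log2 fold change -1.07, SE 0.20, edgeR adjusted p = 0.0134; adjusted p = 0.057 without Adh 1).

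A few nuclear RNAs, a nuclear speckle gene and host genes of small RNAs were also lower. NEAT1 (ENSG00000245532, chromosome 11, 65422774 to 65445540), the long noncoding RNA on which paraspeckles form, was at 31.3, 36.5, 25.7 and 26.2 CPM in Adh and 71.1, 69.3, 52.1 and 54.2 CPM in Susp libraries. Its log2 fold change was -1.04 (SE 0.20, edgeR adjusted p = 0.0172), not called without Adh 1, Adh 3 or Adh 4 (adjusted p up to 0.0696). CCNL2, a cyclin of nuclear speckles, had 115, 114, 123 and 128 CPM in Adh and 183, 196, 183 and 192 CPM in Susp libraries, with little spread in either group (log2 fold change -0.65, SE 0.08, edgeR adjusted p = 0.000664). It was the 1 call among 57 splicing factor and speckle genes, 18 of which had a log2 fold change above 0 (median -0.0559). SNHG3, SNHG4 and SNHG12, transcripts whose introns carry small nucleolar RNAs and which are turned over by nonsense-mediated decay, had log2 fold changes of -0.62, -0.68 and -0.74 (edgeR adjusted p = 0.0194, 0.0283 and 0.0204). In Adh libraries they ranged over 47.99 to 58.5, 7.84 to 9.53 and 15.8 to 19.8 CPM, and in Susp libraries over 73.03 to 92.2, 13.5 to 14.8 and 26.5 to 38.3 CPM. These 3 were the calls among 31 tested small RNA host genes and decay-sensitive RNAs, whose median was -0.14, with 7 members above 0. Their calls were less firm than that of CCNL2: SNHG3 lost it without Adh 1, Adh 2, Adh 4 or Susp 2, SNHG12 without Adh 1, Adh 2 or Adh 3, and SNHG4 in all fits but that without Susp 2, with adjusted p up to 0.0721, 0.0737 and 0.0929. NEAT1 was the only call among 22 tested nuclear long noncoding RNAs, 9 of which had a log2 fold change above 0 (median -0.0446). MALAT1, a second abundant nuclear RNA, did not pass, at 29.1, 37.5, 54.1 and 25.5 CPM in Adh and 69.5, 66.9, 52.5 and 53.5 CPM in Susp libraries (log2 fold change -0.73, adjusted p = 0.109), where Adh 3 overlapped the Susp libraries. Among the libraries of this comparison, its call was made without Adh 3, at a log2 fold change of -0.98. MALAT1 was picked after its values were seen.

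For some lower genes, the counts depend on how reads of near-identical copies were assigned. RN7SL2 is 1 of the genes of 7SL RNA, the scaffold of the signal recognition particle, which directs secretory proteins to the endoplasmic reticulum. RN7SL2 had 3.61, 2.600, 14.3 and 5.902 CPM in Adh and 21.7, 29.4, 22.3 and 24.04 CPM in Susp libraries, whereas RN7SL1, a near-identical copy, was listed at 0 counts in all 12 REC-1 libraries. Only uniquely mapped reads were counted, so RN7SL2 values cover what this assignment left, and its log2 fold change, -1.95 (SE 0.42, edgeR adjusted p = 0.0354), is uncertain as a change of 7SL RNA. This RNA has no poly(A) tail of its own in the textbook account, while the libraries were made from poly(A) RNA. The call was lost without Adh 1, Adh 2, Adh 4, Susp 3 or Susp 4 (adjusted p up to 0.136).

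Likewise, the nuclear copies of mitochondrial genes MTATP6P1, MTCO1P12 and MTND2P28 were among the 25 largest falls, at log2 fold changes of -1.77, -1.71 and -1.45 (edgeR adjusted p = 0.000956, 0.0458 and 0.00883). MTATP6P1 on chromosome 1 was at 43.8, 20.7, 44.1 and 26.9 CPM in Adh and 118, 96.4, 170.5 and 76.4 CPM in Susp libraries, so that these groups stood well apart. A stretch of 150 bases of it (chr1:633738-633887, plus strand, GRCh38) is shown beside that of MT-ATP6 (chrM:8569-8718), a subunit gene of ATP synthase, to show how little separates both, 5′ to 3′ with the differing bases in capitals.
MTATP6P1: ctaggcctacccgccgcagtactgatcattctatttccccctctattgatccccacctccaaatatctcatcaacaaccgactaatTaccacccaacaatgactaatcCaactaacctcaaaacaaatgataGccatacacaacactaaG
MT-ATP6: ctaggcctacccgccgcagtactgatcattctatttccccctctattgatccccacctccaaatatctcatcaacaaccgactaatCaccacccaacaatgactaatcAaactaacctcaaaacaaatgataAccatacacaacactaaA
Over the whole gene, 671 of 681 bases were identical (98.53%). The 13 protein genes of the mitochondrial genome all fell, with a median of -1.64, and mitochondrial genes took 0.36% to 0.68% of human counts in Adh and 1.31% to 2.17% in Susp libraries. How far reads were shared between these genes and the copies was not tested. Without Adh 2, Adh 3, Adh 4, Susp 2, Susp 3 or Susp 4 the call of MTCO1P12, at 0.385 to 2.25 CPM in Adh and 3.02 to 5.95 in Susp libraries, was lost (adjusted p up to 0.137).

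The other large falls touched several functions. MIR142, the locus of a microRNA of blood cells, measured here as its longer transcript, was at 8.57, 12.3, 10.5 and 8.47 CPM in Adh and 22.96, 47.6, 23.01 and 24.6 CPM in Susp libraries, where Susp 2 was far above the others (log2 fold change -1.56, SE 0.31, edgeR adjusted p = 0.0199). Its call was lost without Adh 1, Adh 3 or Adh 4 and kept without Susp 2. WNT3, a Wnt ligand, fell from a range of 15.9 to 20.4 CPM in Susp to one of 7.97 to 10.2 CPM in Adh libraries (log2 fold change -0.94, edgeR adjusted p = 0.0142; up to 0.055 without Adh 3 or Adh 4) and was the 1 call among 33 tested genes of Wnt, Hippo and cell contact signalling. PGGHG, which trims sugars from collagen, fell from a range of 20.2 to 28.5 CPM in Susp to one of 7.29 to 12.1 CPM in Adh libraries (log2 fold change -1.24, SE 0.18, edgeR adjusted p = 0.00159) and was called in all 8 fits without a library. A pair of genes of DNA repair fell as well: PIF1, a DNA helicase, from a range of 9.23 to 13.6 CPM in Susp to one of 4.51 to 6.16 CPM in Adh libraries (log2 fold change -1.08, edgeR adjusted p = 0.0107; 0.0521 without Adh 1) and EME2, a partner of the MUS81 nuclease, from a range of 6.44 to 9.71 CPM in Susp to one of 2.57 to 4.62 CPM in Adh libraries (log2 fold change -1.15, edgeR adjusted p = 0.045), whose call held only without Adh 2 or Susp 2. CAPN10-AS1, an antisense RNA, was at 0.601 to 1.54 CPM in Adh and 3.44 to 3.895 CPM in Susp libraries (log2 fold change -1.59, edgeR adjusted p = 0.0107). Since the library kit does not mark strand, its reads and those of CAPN10 on the opposite strand cannot be told apart where both overlap. The read-through gene RTEL1-TNFRSF6B (log2 fold change -1.55, edgeR adjusted p = 0.00959) shares exons with its neighbours, and reads of these shared exons cannot be told apart either. LY6G5B, NECAB3, FAM160B2, ZNF280D, MROH6, CTD-2228K2.7, and the pseudogenes CYP4F29P and STAG3L5P completed the 25, with log2 fold changes of -1.52 to -1.04. Of these 8, NECAB3 and STAG3L5P were called in every fit without a library, CYP4F29P in all but those without Adh 2 or Adh 3, and MROH6 in none (adjusted p up to 0.138).

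**Figure D3:**
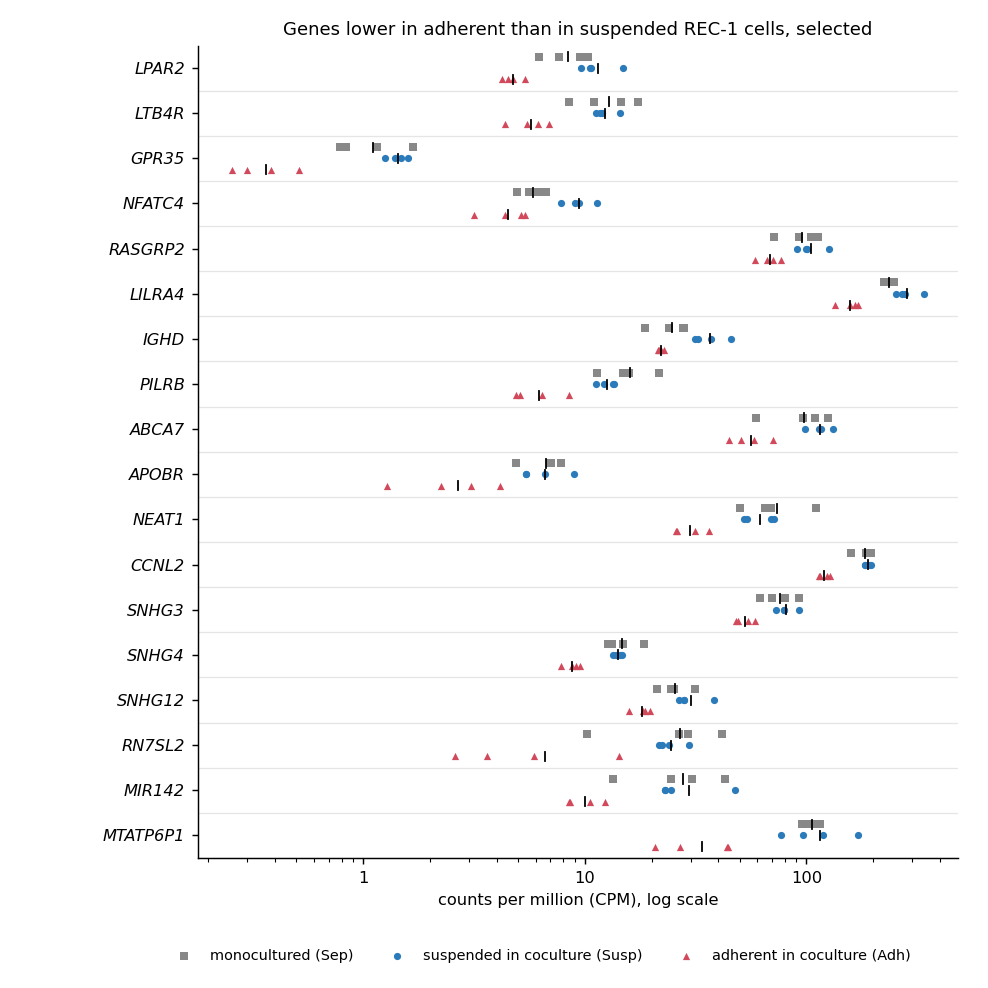
Levels in CPM (log axis) of 18 genes called lower in Adh than in Susp cells, with Sep cells (squares) beside them, 4 points per group for the 4 libraries and a black bar at the group mean. Every triangle (Adh) lies to the left of every circle (Susp), and for RN7SL2 and MIR142 the libraries of 1 group differ among themselves by more than for LILRA4 or CCNL2.

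The genes that the study's account of coculture names, among them mediators of NF-κB and chemokine signalling, did not pass the test between Adh and Susp cells in any of 18 cases. The study named most of them for responses that differed between REC-1 and JeKo-1, a second mantle cell lymphoma line. That does not by itself imply a change in REC-1. By contrast, it counted TRAF1 and HOXA13 among genes changed in both lines, and neither was called here. At the same limits of adjusted p and fold change, the study called more REC-1 genes than were called here. CXCR4, the receptor of the stromal chemokine CXCL12, was at 38.8, 34.3, 45.2 and 39.6 CPM in Adh and 39.7, 39.4, 43.9 and 41.4 CPM in Susp libraries, and these values overlapped (log2 fold change -0.06, SE 0.10, edgeR adjusted p = 0.77). For the adhesion ligand ICAM1 the log2 fold change was 0.03 (SE 0.12), for CSF1, a growth factor of macrophages, 0.03 (SE 0.15), for NFKB1 -0.10 (SE 0.07) and for NFKBIE, an inhibitor of NF-κB, -0.02 (SE 0.12). The sphingosine receptor S1PR1, at -0.10, the adhesion molecule CD48, at -0.11, the phosphatase DUSP2, at -0.03, and PLEK, at 0.14, were also close to 0. Libraries of both groups did not overlap for CD83 (258 to 283 CPM in Adh, 226 to 242 in Susp, log2 fold change 0.20, adjusted p = 0.201), IL10RA (311 to 381 and 399 to 457 CPM, -0.28, adjusted p = 0.116), TRAF1 (2.95 to 6.04 and 1.46 to 2.83 CPM, 0.87, adjusted p = 0.198) and HOXA13 (2.05 to 2.31 and 0.677 to 1.11 CPM, 1.13, adjusted p = 0.142), as for 11.4% of all genes. IL10RA, the IL-10 receptor chain, was lowest in Sep libraries, at 250.4 to 293 CPM. The chemokine genes CCL3 and CCL4 had log2 fold changes of 0.62 (SE 0.33) and 0.43 (SE 0.21), and the immediate early genes EGR1 and EGR3 0.26 (SE 0.13) and 0.53 (SE 0.30), with overlapping libraries. At 1.16 to 3.34 CPM in Adh cells for CCL3, such differences were not detectable beyond the spread of these libraries. The markers of the tumour itself did not pass either, CCND1 with a log2 fold change of -0.21 (adjusted p = 0.444), SOX11 with -0.38 (adjusted p = 0.141), MS4A1 (CD20) with 0.12 (adjusted p = 0.495) and PAX5 with 0.12 (adjusted p = 0.627).

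Over 57 lists of genes by pathway or cell type, 15 had a call and 42 had none, of which 12 had 1 or more with the replicate number as a block. Over all tested genes 0.778% were called, so most lists of such sizes would hold no call at that share. A count of 0 therefore says little about a pathway. The mitochondrial protein genes apart, no list had more than 3. Adhesion and matrix receptors counted 2 higher genes (CD44 and HAPLN1) of 39 tested, with a median log2 fold change of 0.0933. Of these 39, 15 were below 0, the lowest at -1.04. The abundant members CD24 and CD47 had log2 fold changes of -0.05 and 0.03. A single call each was made among 17 tetraspanins (TSPAN13, median 0.0292), 13 RGS regulators (RGS13, median 0.15, and 0.36 without Susp 2), 35 genes of TGF-beta, BMP and activin signalling (BMP5, median 0.133) and 30 solute carriers of monocarboxylates and amino acids (SLC16A10, median 0.0549). No gene was called among 19 chemokines and cytokines, 41 cytokine receptors, 27 TNF superfamily members, 39 NF-κB genes, 38 immediate early and ERK feedback genes, 50 factors of B cell identity, 46 interferon-stimulated genes or 19 BCL2 family members, and their medians lay between -0.0514 and 0.063. Nuclear-encoded subunits of oxidative phosphorylation had 0 calls of 76 and a median of -0.0258. Cytosolic ribosomal proteins had 0 calls of 79, yet 74 of the 79 were below 0, with a median of -0.129 and a range of -0.677 to 0.0386, but this median was 0.0305 without Susp 2 and -0.187 to -0.113 under every other alternative, so its direction rests on that library. Genes of S phase were above 0 in 34 of 46 (median 0.0859) and those of mitosis below 0 in 34 of 55 (median -0.0962), with 0 calls, and these signs of the medians were kept under all alternatives run. Of MHC class II presentation, 0 of 13 genes were called. CD74, the invariant chain, had a log2 fold change of -0.06, and HLA-DRA, chosen after its values were seen, had one of 1.87 (SE 0.56, adjusted p = 0.114) from 3.91, 5.39, 16.2 and 2.57 CPM in Adh and 1.46, 3.56, 0.58 and 2.02 CPM in Susp libraries, with Adh 3 far above the others.

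**Figure D4:**
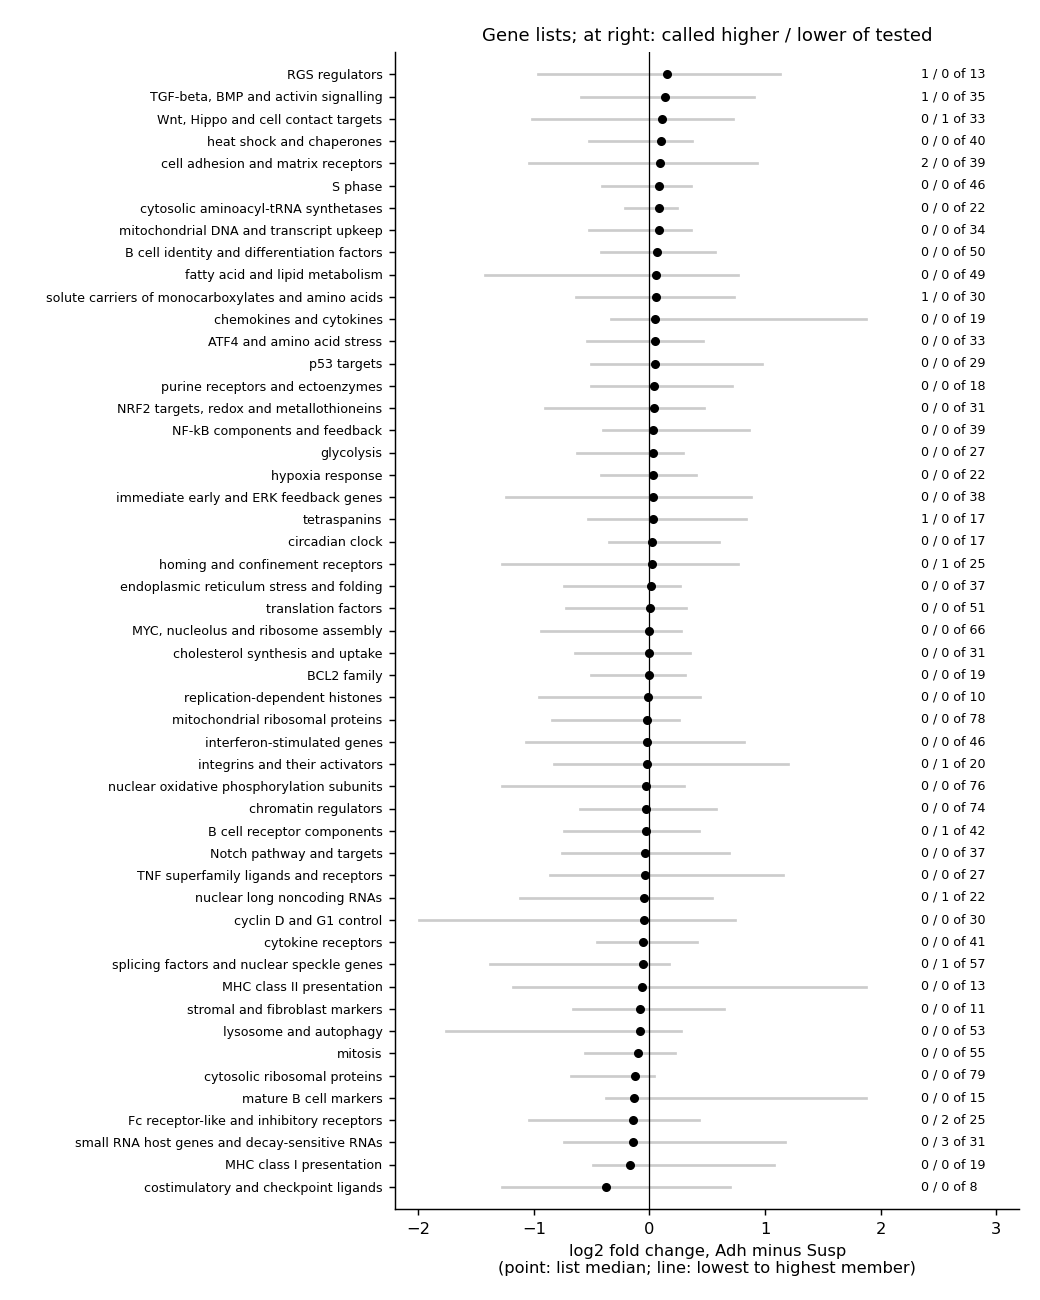
Log2 fold change, Adh minus Susp, of the gene lists with at least 5 tested members apart from the mitochondrial protein genes and 1 list not reported here: the point is the list's median, the grey line runs from its lowest to its highest member, and the numbers at right are genes called higher, called lower and tested. The medians lie close to 0, the lowest at -0.378 for 8 costimulatory and checkpoint ligands, and no list has more than 3 calls.

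By kind of gene, the 14 higher genes were all protein coding, of 11230 tested. Of the 72 nuclear lower genes, 54 were protein coding (0.481% of those tested), 8 long noncoding (0.853% of 938), 7 pseudogenes (1.28% of 546), 2 from immunoglobulin loci (of 32) and 1 another RNA (of 94). The median log2 fold change was 0.00607 in protein-coding, -0.148 in long noncoding and -0.122 in pseudogenes. Protein-coding calls differed in base composition. Exons of the 14 higher genes had a median GC content of 42.89%, those of the 54 lower genes 58.89% and those of the uncalled genes 47.43%. Divided into 5 classes of equal size from low to high GC content, the median log2 fold change went from 0.145 through 0.104, 0.0375 and -0.0879 to -0.266, and 31 of the 54 lower genes were in the highest class. Without Susp 2 the median of that class was -0.179 and without Adh 1 it was -0.188, with 21 and 9 lower calls. The correlation between GC content and log2 fold change was r = -0.494 across 11230 genes, a description, since genes of 1 library share its composition and are not independent replicates. Individual libraries did not separate in this respect by group. Relative to the mean of all 12 libraries, the median of the highest GC class was -0.366, -0.000196, -0.187 and 0.0669 in Adh 1 to 4 and -0.0827, 0.382, 0.182 and 0.127 in Susp 1 to 4, so that Adh 4 was above Susp 1. With GC content and exon length corrected in each library, 147 genes were called, 32 higher and 115 lower, 76 of which were among the 100. Apart from IGHD, RASGRP2 and the 4 higher genes given above, the named genes that lost their calls there were MROH6 and APOBR, at corrected log2 fold changes of -0.82 and -0.95. LRRC14, a call on the chromosome 8 part given below, was lost as well, at -0.34. A retained-intron transcript was annotated for 45 of the 54 lower genes (83.3%), 3 of the 14 higher genes (21.4%) and 62.2% of the uncalled protein-coding genes. The part of base composition in each call was not tested beyond this correction.

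Lower calls were also gathered on part of chromosome 4, and medians were lower on parts of chromosomes 4, 8 and X. The limits of these parts were set after the values had been seen, so that no test is given. Over whole chromosomes, 1.55% of the tested protein-coding genes of chromosome 4 and 1.39% of those of chromosome 15 were called lower. All 6 protein-coding calls on chromosome 4 lay between 60 Mb and its end, among 233 tested genes there (2.58%), against 0.433% called lower of the 10635 genes outside this and the following parts. These genes, chosen after their values were seen, were TBC1D9, SLC9B2, DCLK2, PCDH10, MANBA and PPID. TBC1D9, of the Rab GTPase regulators, was at 60.7, 50.3, 42.1 and 51.1 CPM in Adh and 93.5, 82.9, 91.9 and 97.5 CPM in Susp libraries (log2 fold change -0.84, SE 0.11, edgeR adjusted p = 0.000657). SLC9B2, a sodium and proton exchanger, was at 7.89, 7.99, 8.61 and 8.08 CPM in Adh and 20.3, 14.8, 16.2 and 14.4 CPM in Susp libraries (log2 fold change -1.01, SE 0.14, edgeR adjusted p = 0.00128). For the kinase DCLK2, the protocadherin PCDH10, the lysosomal mannosidase MANBA and the cyclophilin PPID the log2 fold changes were -0.73, -0.75, -0.60 and -0.78. The calls of the first 4 of the 6 were kept in all 8 fits without a library, MANBA was lost without Susp 1, and PPID was called only without Adh 2.

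Most other genes of that stretch leaned the same way by less than the 1.5-fold minimum. Of the 233, 73% were below 0, with a median log2 fold change of -0.108, and after correction for GC content and length 89.7% were, with a median of -0.239. In the 154 genes on the rest of chromosome 4, these medians were 0.0404 and -0.0322, and 0 were called. Corrected medians of the 233 genes, relative to the mean of 12 libraries, were -0.158, -0.116, -0.108 and -0.0888 in Adh 1 to 4, 0.106, 0.181, 0.117 and 0.14 in Susp 1 to 4, and between -0.035 and 0.0349 in Sep libraries. Adh and Susp libraries thus lay on opposite sides of the Sep libraries. Before correction they overlapped. The median log2 fold change was below 0 also for 237 genes between 60 and 150 Mb of chromosome 8 (corrected median -0.157, uncorrected -0.0575, 2 lower calls, LRRC14 and MROH6, uncorrected median -0.087 without Susp 2) and for 100 genes between 100 and 140 Mb of chromosome X (-0.245 and -0.155, 0 calls). Neither LRRC14 nor MROH6 was called under the GC and length correction. Over 284 windows with at least 10 genes each, Adh medians were all below Susp medians in 28 (9.86%), of which 21 were among the 24 windows of these 3 parts, and all above in 7 (2.46%). As the parts were drawn from these values, that share is no test of them. Outside the parts, 13 windows had a corrected median at or below that of the highest window within them. DNA of these cell fractions was not analysed here.

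**Figure D5:**
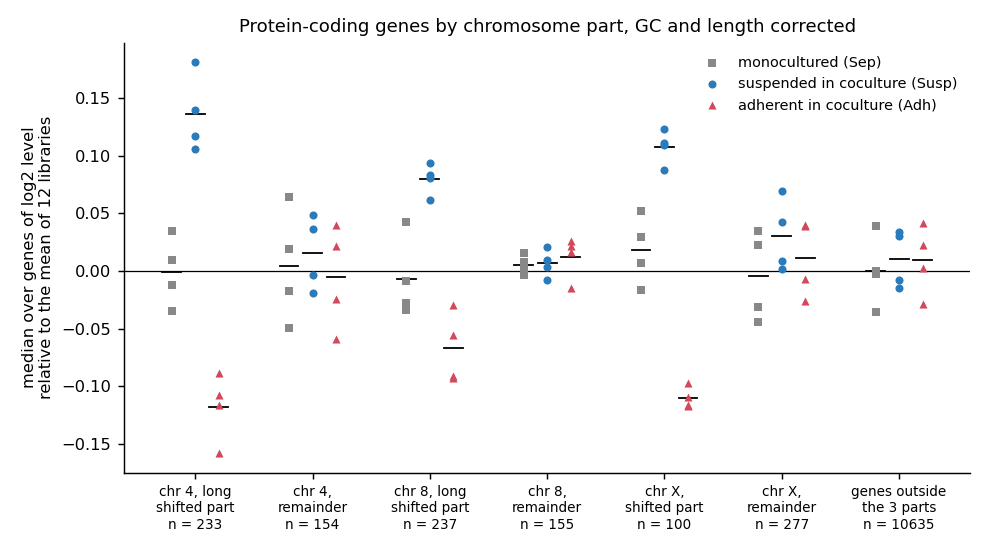
Median over protein-coding genes of the log2 level relative to the mean of 12 libraries, corrected for GC content and exon length, for the parts of chromosomes 4, 8 and X with lower levels in Adh cells, for the remainder of each chromosome and for all genes outside these parts, with 1 point per library and a bar at the group mean. On the 3 shifted parts every triangle (Adh) lies below every circle (Susp). In the other columns shown, each a median over many genes, the groups overlap around 0.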

How the data were processed

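RNA was prepared after 24 h of culture with TruSeq poly(A) chemistry. The authors split the reads by species with Xenome, used STAR 2.5.1b for alignment to GRCh38 or GRCm38 (Ensembl release 87), and counted uniquely mapped reads per gene with featureCounts of Subread 1.5.2. The submitters' processing notes also name edgeR 3.22.5. The authors deposited counts per gene without normalization. Of the human counts above 0 in Adh and Susp libraries 62.1% were even, so both mates of a pair may have been counted, and counting precision is lower than the totals imply. A further 20 columns of per-sample values, not of the groups described here, were not used.

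Counts of the 12 REC-1 libraries were filtered with filterByExpr and scaled by TMM, and groups were compared in 1 model by the quasi-likelihood F-test in edgeR 4.0.16 (R 4.3.3). Expression is given as CPM with TMM-scaled library sizes, and SE belongs to the log2 fold change. The test and the GC correction (loess span 0.3, on exon length and GC content from GENCODE release 44, known for 99.32% of tested genes) were tested on simulated counts. Same-numbered Adh and Susp libraries deviated from their group means with r = 0.312, 0.0579, -0.0122 and -0.0205 over genes, and no source used here says that a number marks 1 coculture, so the number was used as a block only in an alternative.

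Genes named are all that were called higher, the 25 largest falls outside the mitochondrial genome, called or abundant members of the 57 lists, and genes the study's results name. Lists, members and the chromosome parts were chosen with earlier results of these data known. Alternatives were the replicate block, DESeq2 1.42.0, upper-quartile normalization, no filter, at least 10 counts in every library, mitochondrial genes removed, counts thinned to 7758979 per library, no fold-change minimum, the 8 libraries alone, the GC and length correction without and with the block, and each library left out. MS-5 cells alone were not analysed here, and the values of 1 gene list and the sequences of 1 gene pair are not reported.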

Additional observations from a re-analysis of the deposited data

Results flagged for a closer look

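Among 168 group values of the named genes (84 genes in 2 groups of 4 libraries), 12 had 1 library far from the other 3. Chance gives about 1 in 20 such groups. Susp 2 was the library set apart in 5 of the 12: MIR142 was at 47.6 CPM there against 23.0 to 24.6 in the other Susp libraries, SNHG12 at 38.3 against 26.5 to 28.1, CCL3 at 2.71 against 1.41 to 1.498, DUSP2 at 78.7 against 55.0 to 58.7, and CD48 at 109.0 against 84.3 to 87.8.

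Among Adh libraries, Adh 4 stood apart for TSPAN13, at 8.98 CPM against 13.6 to 14.3, and for RTEL1-TNFRSF6B, at 0.770 against 1.16 to 1.20. Adh 2 had 4.24 CPM of MTND2P28 against 10.5 to 10.97, Adh 3 had 1.16 CPM of CCL3 against 3.01 to 3.34, and Adh 1 had 2.10 CPM of EGR3 against 3.37 to 3.60. In the other Susp libraries, RTEL1-TNFRSF6B was at 2.39 CPM in Susp 1 against 3.38 to 3.49, and HOXA13 at 0.677 CPM in Susp 3 against 1.06 to 1.11.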

How the results depend on the processing

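None of the 54 called genes named in the text changed direction under any alternative. The call was kept by 34 of them under every alternative that used all Adh and Susp libraries and by 18 under every alternative. Counts of calls moved more. With the replicate block, 281 genes were called (41 higher, 240 lower), 99 of them among the 100. Same-numbered libraries also share the digit of their sample codes, but no source used here states that a number marks 1 coculture: r of the deviations was above 0.1 for 1 of 4, and 2 of 4 Adh libraries correlated best with the Susp library of their own number. DESeq2 called 235 (50 higher, 185 lower; 99 shared) and no low-count filter gave 341 (45 and 296; 100 shared). Under the GC and length correction 147 were called (32 higher), and 156 (36 higher) with the block. The other alternatives with all libraries gave 86 to 121. Without 1 library there were 51 to 92 calls, 6 to 14 higher and 45 to 80 lower, fewest without Adh 1, and 77 of the 89 calls without Susp 2 were shared. Of the 42 lists with 0 calls, 24 had 1 or more under some alternative, 12 of them with the block, 12 with DESeq2 and 14 without the filter. Of the 30 named genes that were not called, 13 changed sign, and MALAT1 and HLA-DRA passed under some alternatives (HLA-DRA without the filter). The medians of the chromosome parts were -0.239 for chromosome 4, -0.157 for chromosome 8 and -0.245 for chromosome X under the GC and length correction and -0.24, -0.152 and -0.239 with the block added. Without single libraries the uncorrected chromosome 8 median, -0.0575 with all libraries, ranged from -0.087 to -0.0528. The cause of these shifts was not tested. Depth limits rare genes such as GPR35 and PCDH17, which rest on few counts per library.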
